A study of Mus musculus with 204 samples.

Results

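Potassium channels of the Kcn gene families were followed across 21 tissues of lean and obese mice. The members were the protein-coding genes of the deposited table whose mouse symbol, assigned from the Ensembl identifier with GENCODE M21, begins with Kcn. There were 30 of them among 13153 genes, of which 5110 were protein-coding. GENCODE M21 annotates 94 protein-coding Kcn genes, and the 30 lay on chromosomes 1 (9 genes), 2 (10), 3 (9) and X (2). Kcn genes on other chromosomes were not analysed here, and 1 Kcn symbol was set aside as a gene that is not protein-coding (Kcnd3os, antisense to Kcnd3).

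RNA sequencing libraries came from male wild-type C57BL/6J mice, an inbred strain. The diet-induced obese (DIO) mice had eaten a diet with 60% fat for 10 weeks, and the lean mice were kept on chow with 13.1% fat. There were 102 libraries of each diet, with 5 DIO and 5 lean libraries in 18 tissues. Subcutaneous fat had 3 DIO and 5 lean libraries and mesenteric fat had 4 and 3. The fast muscle EDL (extensor digitorum longus) had 5 and 4. The labels put the mice at 6 to 12 weeks when obtained but start the diet at 4 weeks of age. They name 19 tissues where 21 are present. The DIO libraries of colon and of cerebral cortex are named in more than 1 number series, one of which the lean libraries share. Number series also differed between many tissues, and where they did, tissue and series cannot be told apart.

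Levels are in CPM, read counts scaled to a common library size. Library totals ran from 6.58 to 129.7 M reads (median 20.7, second largest 30.9), so 1 CPM was about 20.7 reads in the median library. In 10 libraries a marker of the labelled tissue was missing or one of another tissue was high: adrenal DIO 1, DIO 2 and lean 1 had almost no reads of the steroid enzyme gene Hsd3b1, subcutaneous fat lean 2 and lean 3, mesenteric fat DIO 2 and retroperitoneal fat DIO 3 had high levels of the lymphocyte genes Cr2 or Cd2, and brown fat DIO 5, brown fat lean 2 and retroperitoneal fat lean 2 had high levels of the muscle gene Tnnc2. Results that rest on them are given with and without them. The labels do not say which libraries came from the same mouse, so p-values measure the spread between libraries, and libraries of different tissues may share mice.

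A potassium channel is built from alpha subunits, whose pore loops line a selectivity filter that lets potassium through and holds sodium back. Voltage-gated subunits repolarise nerve and muscle cells after an action potential, inward rectifiers and two-pore-domain channels set the resting potential, and the calcium- or sodium-activated channels couple ion entry to repolarisation. Auxiliary subunits do not form a pore but change the gating or the surface level of the alpha subunits they bind.

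The members comprised 13 voltage-gated alpha subunits (among them Kcna2, Kcna3, Kcna4, Kcna10, Kcnb2, Kcnc4, Kcnd1, Kcnd3, Kcnh1, Kcnh7 and Kcnq5), 2 electrically silent alpha subunits that modify other voltage-gated ones (Kcng1 and Kcns1), 4 inward rectifiers (Kcnj3, Kcnj9, Kcnj10 and Kcnj13) and 2 two-pore-domain channels (Kcnk2 and Kcnk15). There were also 3 calcium- or sodium-activated channels (Kcnn3, Kcnt1 and Kcnt2) and 6 auxiliary subunits (Kcnab1, Kcne1l, Kcne4, Kcnip3, Kcnmb2 and Kcnmb3). In the longest coding sequence of each gene in GENCODE M21, a script looked for serine or threonine, any residue, glycine, tyrosine or phenylalanine, and glycine, in that order. This signature was found in all 24 alpha subunits and in 0 of the 6 auxiliary subunits. The 2 two-pore-domain members held it at 2 places each and the other 22 at 1, which made 26 loops, 19 with glycine-tyrosine-glycine and 7 with glycine-phenylalanine-glycine.

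The coding sequence around the filter is shown for members on which the results turn, so that the shared signature can be seen beside their different tissue patterns. Capitals mark the 3 filter codons, and each stretch is 30 bases read 5′ to 3′ on the coding strand.
Kcna2: tccatgacaactgtaGGCTATGGAgacatg
Kcnc4: accatgacaacgcttGGCTATGGGgacatg
Kcnd1: accatgaccacacttGGGTATGGAgatatg
Kcnj3: accgaggccaccatcGGCTATGGCtaccgc
Kcnj10: tcccagaccaccatcGGCTATGGCttccgc
Kcnt1: actttctcaactgtgGGCTTCGGTgatgtg
Kcnt2: acattttctactgtgGGCTTTGGGgatgtc
All of these are coding exon sequence on GRCm38, the build of GENCODE M21. Kcna2 lay at chr3:107105215-107105244 (plus strand, exon 3) and Kcnc4 at chr3:107447793-107447822 (minus, exon 2). Kcnj3 lay at chr2:55437618-55437647 (plus, exon 1) and Kcnj10 at chr1:172369293-172369322 (plus, exon 2). Kcnt1 lay at chr2:25894358-25894387 (plus, exon 11) and Kcnt2 at chr1:140425269-140425298 (plus, exon 9). In Kcnd1 the stretch was split by an intron between exons 1 and 2, chrX:7824947-7831184 (plus). Both sodium-activated channels carried phenylalanine in the filter, where the other 5 printed members carried tyrosine.

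In lean mice most of these genes had their highest level in the brain. Of the 30 members, 27 reached a mean of 1 CPM in at least 1 lean tissue, and 26 of these 27 had their highest mean in a brain region: 11 in cerebral cortex, 5 in hypothalamus, 5 in midbrain/brainstem and 5 in cerebellum. Over the 4642 genes that reached that level the highest mean was in a brain region for 36.9%. The exception was Kcne4, an auxiliary subunit of Kv channels, with its highest mean in the adrenal gland. Its adrenal libraries overlapped those of subcutaneous fat, the second tissue. Without the libraries set apart the means were 9.97 ± 3.24 CPM (SD) in adrenal and 3.26 ± 0.603 CPM in subcutaneous fat. The latter was then below jejunum, the third tissue (4.97 CPM). For 14 members all 20 lean brain libraries lay above all 82 other lean libraries, which was so for 11.8% of those 4642 genes. In the DIO libraries, which were not used for these ranks, 23 of the 27 had the same highest tissue. The 4 that moved were Kcnab1, Kcnb2, Kcnj9 and Kcne1l; the first 3 moved between brain regions.

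**Figure D1:**
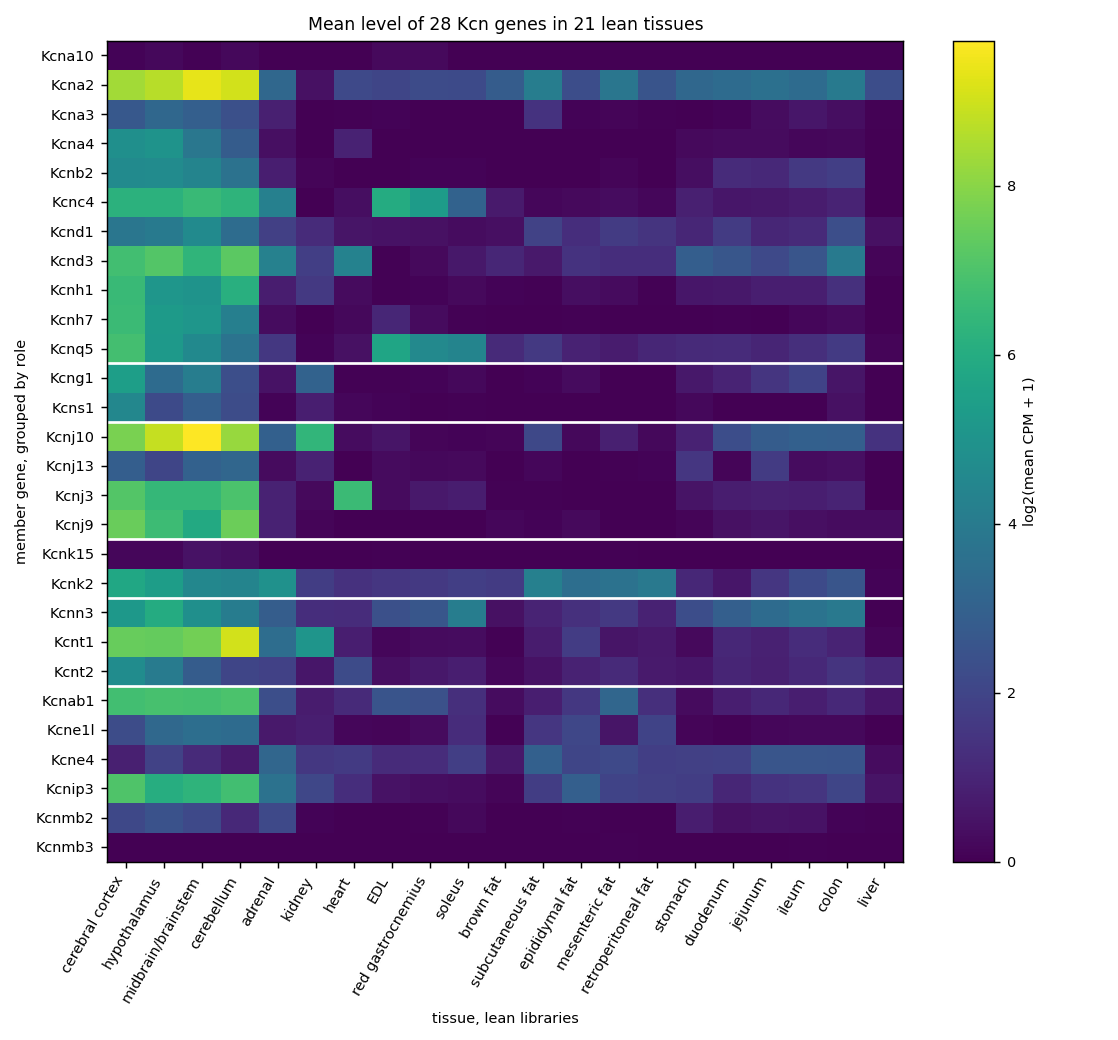
Mean level of 28 members in 21 lean tissues as log2(mean CPM + 1), from low (dark) to high (yellow); rows are grouped by role, with white lines between roles, and columns are tissues. The 4 brain columns on the left are the brightest for nearly all rows, and outside them Kcnj3 stands out in heart, Kcnj10 in kidney and Kcnc4 in EDL.

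Kcnj10 (Kir4.1), the inward rectifier with which astrocytes buffer potassium, was highest in midbrain/brainstem. There its lean libraries gave 681, 801, 796, 1021 and 911 CPM, against a mean of 214 CPM in cerebral cortex. Even the lowest of the 20 brain libraries (145 CPM) was above the highest library elsewhere, 88.8 CPM in kidney. Of the astrocyte markers, Gpr37l1 was 263 ± 37.6 CPM (SD, n = 5) in midbrain/brainstem and 146 ± 23.4 CPM in cerebral cortex, and Slc1a2 was 1914 ± 131 and 2890 ± 164 CPM; their part in the result was not tested. Kcna2 (Kv1.2), an axonal delayed rectifier, also had its highest mean in midbrain/brainstem, with 592, 663, 620, 709 and 661 CPM. These libraries overlapped those of cerebellum (432 to 645 CPM).

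Cerebral cortex had the highest mean of Kcnj3 (Kir3.1, a G-protein-gated rectifier; 137 ± 22.5 CPM), the calcium-binding Kv4 partner Kcnip3 (131 ± 9.62), Kcnq5 (Kv7.5; 111 ± 8.16), Kcnh7 (an ERG-type channel; 98.5 ± 22.4) and Kcnh1 (Eag1; 94.0 ± 5.15). Kcnk2 (TREK-1, a mechanically gated leak channel) reached 54.8 ± 6.67 CPM in cortex, the silent subunits Kcng1 and Kcns1 42.3 ± 7.20 and 21.6 ± 2.68, and Kcnt2 (Slick) 25.8 ± 1.38. For Kcnj3, Kcnip3 and Kcnk2 the cortex libraries overlapped those of the second region, so their order was not resolved.

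Kcnt1 (Slack), a sodium-activated channel, was concentrated in one brain region. Its lean cerebellum libraries gave 553, 495, 556, 503 and 534 CPM, and the cortex libraries 174, 142, 235, 151 and 162 CPM. The groups did not overlap. Kcnd3 (Kv4.3), Kcnj9 (Kir3.3), Kcnab1 (a Kv1 beta subunit) and Kcnj13 (Kir7.1) also had their highest mean in cerebellum, at 153 ± 17.02, 183 ± 11.1, 125 ± 12.1 and 8.21 ± 4.72 CPM. For each of these the libraries overlapped those of the second region, so their order was not resolved. The second means were 137 (hypothalamus), 179 (cortex), 117 (hypothalamus) and 7.17 CPM (midbrain/brainstem). The 5 cerebellum libraries of Kcnj13 ran from 1.60 to 12.9 CPM.

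The hypothalamus had the highest mean of Kcnn3 (SK3, a calcium-activated channel; 61.3 ± 10.4 CPM), Kcna4 (Kv1.4; 31.2 ± 6.38), Kcnb2 (Kv2.2; 24.5 ± 1.37), Kcna3 (Kv1.3; 8.38 ± 1.33) and Kcnmb2 (a BK channel beta subunit; 4.403 ± 0.364). For Kcna4 the hypothalamus libraries (21.8 to 38.9 CPM) and the cortex libraries (23.6 to 29.5 CPM) overlapped, so their order was not resolved. Libraries of Kcnb2, Kcna3 and Kcnmb2 also overlapped those of their second tissue, which for Kcnb2 was cortex at 23.9 CPM. Midbrain/brainstem led for Kcnc4 (Kv3.4; 95.6 ± 7.88 CPM), Kcnd1 (Kv4.1; 24.4 ± 2.91) and Kcne1l (Kcne5, an auxiliary subunit; 10.4 ± 0.684). For Kcnc4 and Kcne1l its libraries overlapped those of cerebellum. The members below 1 CPM in every lean tissue were Kcna10 (highest mean 0.195 CPM, in EDL), Kcnk15 (0.405 CPM, midbrain/brainstem) and Kcnmb3 (0.0357 CPM, ileum).

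Tissue differences were tested with limma on log2(CPM + 1) in a single fit over the 102 lean libraries, with p adjusted by Benjamini-Hochberg over the 4642 genes tested. Between brain and other tissues all 27 members differed, 26 higher in brain, in a contrast where 91.3% of genes were called. The median difference of members was 3.90 on the log2 scale and that of all genes 0.32. A gene entered the fit by reaching 1 CPM in any tissue, so a gene expressed only in brain had to differ, and these counts are a description. Among the large differences were Kcnj10 (7.10 ± 0.14, SE), Kcnt1 (6.86 ± 0.12) and Kcnj9 (6.67 ± 0.05). Kcne4 alone was lower in brain (-0.66 ± 0.12, adjusted p = 2.09e-07). In these bulk samples fewer cells of a type and less RNA per cell cannot be told apart.

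Within the brain, cerebellum stood apart for most members. Against the mean of the other 3 regions 18 of 27 differed, 4 higher and 14 lower, where 39.4% of genes were called. The median difference of members was -0.57 and that of all genes -0.02. The higher ones were Kcnt1 (528 against 182 CPM, log2 difference 1.55 ± 0.25), Kcnj9 (183 against 112), Kcnh1 (69.5 against 52.8) and Kcne1l (9.54 against 7.65). By edgeR, Kcnh1, Kcne1l and the lower Kcna3 did not pass (adjusted p = 0.154, 0.484 and 0.225). Among the lower ones were Kcng1 (4.07 against 22.7 CPM, -2.71 ± 0.23), Kcnq5 (12.1 against 57.1, -2.38 ± 0.25), Kcnt2 (3.12 against 15.9, -2.29 ± 0.23) and Kcna4 (6.05 against 24.0, -1.997 ± 0.14). The 2 sodium-activated channels thus lay on opposite sides. The summed Purkinje cell markers Calb1 and Car8 were 1830 ± 330 CPM in cerebellum and between 48.7 and 235 CPM over the libraries of the other regions, and their part in these differences was not tested.

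The hypothalamus, which regulates feeding, differed from the cerebral cortex in 15 of 27 members, 4 higher and 11 lower, where 36.7% of genes were called. Hypothalamus and cortex libraries also carry different label number series, which cannot be told apart from region here. Higher in hypothalamus were Kcnj10 (465.7 against 214 CPM, log2 difference 1.14 ± 0.35), Kcne4 (2.82 against 0.822), Kcne1l (8.75 against 3.83) and Kcna3 (8.38 against 5.44). By edgeR, Kcnj10, Kcne1l and Kcna3 did not pass (adjusted p = 0.114, 0.0943 and 0.639), and of the lower ones Kcnj13 and Kcnt2 did not (0.0722 and 0.106). Of 12 alternative settings, Kcna3 passed in 3 and Kcnt2 in 5, and Kcna3 missed the threshold whichever single replicate number was left out. Among the lower ones were Kcnj13 and Kcns1 (3.59 against 21.6 CPM, -2.31 ± 0.12), Kcng1, Kcnq5, Kcnh1 (33.8 against 94.0, -1.51 ± 0.19), Kcnh7, Kcnip3, Kcnj9, Kcnt2 and Kcnj3. The myelin gene Cldn11 was 185 ± 14.3 CPM in hypothalamus and 82.3 ± 9.53 CPM in cortex; its part was not tested.

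Per kb of exon, the scale on which levels of different genes can be set side by side, the leading member changed from tissue to tissue. Summed over the 30 members, the mean level was 413 CPM per kb in midbrain/brainstem, 391 in cerebral cortex, 372 in cerebellum and 341 in hypothalamus, then 34.8 in adrenal and 1.58 in liver. Kcne4 led in 4 segments of the intestine, Kcnj10 in midbrain/brainstem, hypothalamus and kidney, and Kcnc4 in EDL and red gastrocnemius. Kcnj3 led in heart, Kcnt1 in cerebellum, Kcnj9 in cerebral cortex, Kcnj13 in stomach and Kcna2 in liver. Exon length was the union of annotated exons, which can be longer than the transcripts a tissue uses.

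**Figure D2:**
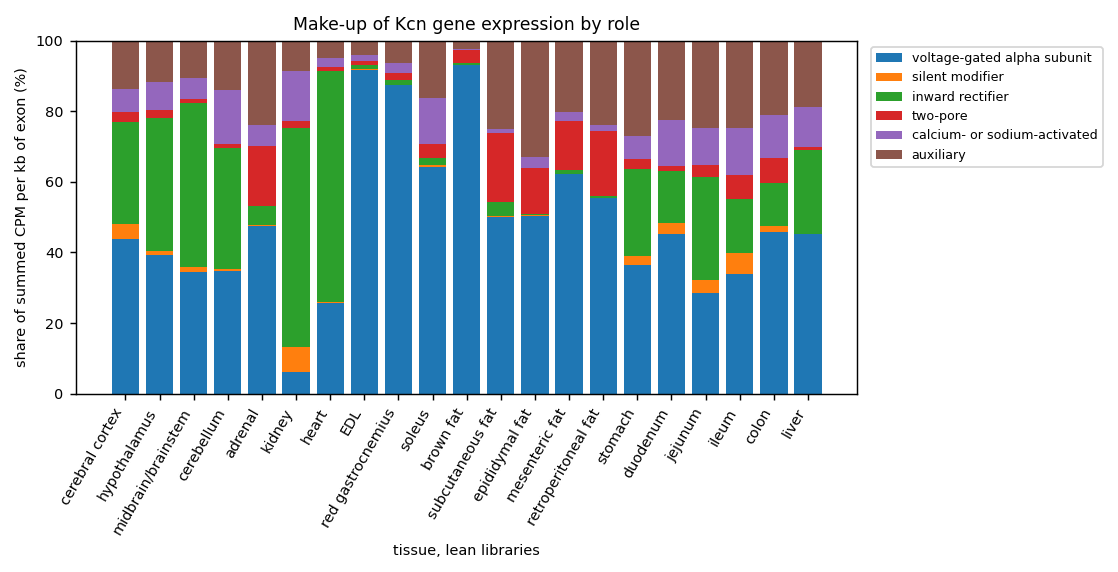
Share of each role in the summed mean CPM per kb of exon of the 30 members, in percent, for 21 lean tissues; each bar adds up to 100. Inward rectifiers take 62.0% in kidney and 65.5% in heart, and voltage-gated alpha subunits 91.8% in EDL.

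Single members differed between striated muscles, although the share of members that did was near or below that of all genes. Heart was set apart by Kcnj3, the subunit of the channel through which acetylcholine slows the heartbeat: its libraries gave 84.6, 67.8, 175, 101 and 62.6 CPM, against 0.171 to 1.14 CPM over all lean libraries of the 3 skeletal muscles (log2 difference 5.95 ± 0.17, adjusted p = 1.16e-50). Lean library 3 was the highest in heart, and no heart library overlapped skeletal muscle. Kcnd3, a Kv4 channel of transient currents, was also higher (19.0 against 0.256 CPM, 3.98 ± 0.29). Kcnq5 and Kcnc4 went the other way, at 0.350 and 0.276 CPM in heart and 31.5 and 36.5 CPM in skeletal muscle, and so did Kcnn3. In all 11 of 27 members differed between heart and skeletal muscle, 6 higher and 5 lower, a share near the 43.3% of all genes.

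Between the slow soleus and the fast EDL, 6 of 27 members differed, 2 higher and 4 lower, where 31.5% of genes were called. Soleus and EDL libraries also carry different label number series, which cannot be told apart from muscle here. Kcnc4, a fast-inactivating channel, gave 57.3, 55.0, 54.3 and 84.3 CPM in EDL and 6.81, 6.97, 5.15, 9.35 and 8.603 CPM in soleus (log2 difference -2.93 ± 0.36, adjusted p = 1.60e-10). Red gastrocnemius lay between them at 39.5 ± 2.29 CPM, and the 3 muscles did not overlap. Kcnq5 followed in EDL at 51.9 ± 9.90 CPM, with soleus at 19.8 ± 0.571. Kcnn3 was higher in soleus, with 17.6, 12.7, 16.4, 20.6 and 13.6 CPM against 2.83, 3.19, 7.79 and 2.72 in EDL (1.82 ± 0.35). Kcne1l was also higher in soleus (1.35 against 0.105 CPM), and Kcnab1 and Kcnh7 were lower.

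**Figure D3:**
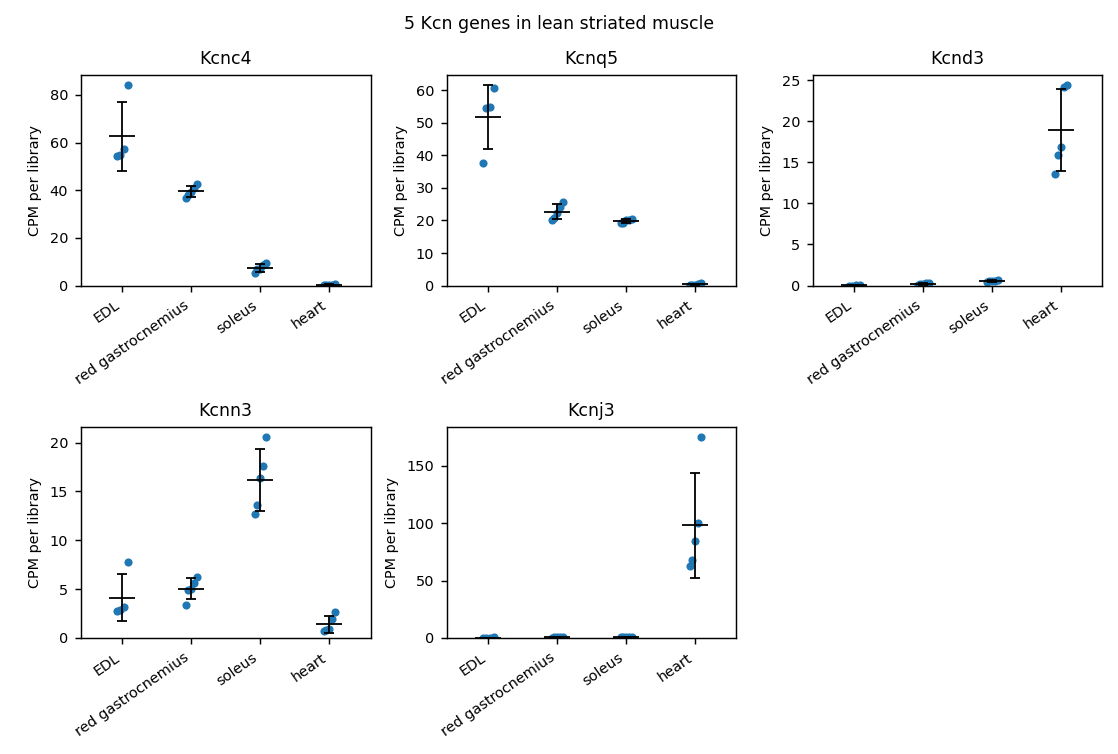
CPM of 5 members in each lean library (points) of EDL, red gastrocnemius, soleus and heart, with mean and SD in black; the vertical scale is linear from 0 and differs between panels. Kcnc4 and Kcnq5 are highest in EDL, Kcnn3 in soleus, and Kcnj3 and Kcnd3 in heart.

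In kidney, Kcnj10 and Kcnt1 stood out. Kcnj10, which serves the basolateral membrane of the distal tubule, gave 79.3, 88.8, 88.7, 85.7 and 71.3 CPM against a mean of 2.39 CPM in the other tissues outside the brain (log2 difference 5.17 ± 0.26). All kidney libraries lay above all of those. Kcnt1 varied more, with 33.4, 54.2, 9.91, 25.3 and 41.8 CPM, and was higher by 4.11 ± 0.22 over a mean of 1.26 CPM. Kcng1 averaged 7.24 ± 2.94 CPM. Counted over both directions 16 of 27 members differed, 7 higher and 9 lower, where 69.2% of genes were called. Kcna2 was among the lower ones, at 0.366 against 7.72 CPM.

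In the adrenal gland 17 of 27 members differed from the other tissues outside the brain and all 17 were higher. That share, 63.0%, was near the 65.1% of all genes, of which 2142 were higher and 879 lower. The median difference was 0.64 for members and 0.20 for all genes. Libraries varied widely: Kcnk2, a leak channel known from the adrenal cortex, gave 6.18, 26.8, 48.3, 12.0 and 54.4 CPM, and Kcnd3 2.03, 11.2, 24.1, 29.3 and 26.0 CPM. The lowest value of both belonged to lean library 1, which also lacked Hsd3b1 reads (0 CPM). Without the libraries set apart the differences were larger, 2.93 against 2.52 for Kcnk2 and 2.86 against 2.29 for Kcnd3, and 19 members were called.

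Stomach and colon each differed from their neighbours, in shares below that of all genes. Stomach differed from intestine in 13 of 27 members, 2 higher and 11 lower, where 63.8% of genes were called. Kcnj13 was higher in stomach than in the mean of the intestinal segments (1.93 against 0.726 CPM), but the segments differed: jejunum was 2.27 ± 1.26 CPM, above stomach at 1.93 ± 1.52, and duodenum, ileum and colon were 0.0895, 0.236 and 0.311 CPM. In stomach Kcnj10 (0.916 against 5.85) and Kcnn3 (3.86 against 10.6) were among the lower members. Without replicate 4 of every tissue only 8 members were called. Colon differed from small intestine in 9 of 27, 7 higher and 2 lower, where 44.2% of genes were called, and 14 were called without replicate 3. Kcnd3 (15.2 against 4.49 CPM, 1.58 ± 0.28) and Kcnd1 (4.07 against 1.501, 1.06 ± 0.13), both Kv4 channels of transient currents, were higher in colon.

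Lean brown fat was set against white fat. It differed from the mean of the 4 white depots in 10 of 27 members, 1 higher and 9 lower, where 60.3% of genes were called. Among all 4642 genes 495 were higher and 2305 lower, and the median difference was -0.08 for members and -0.33 for all genes. The 9 lower ones were Kcnk2 (2.19 against 13.4 CPM, -2.15 ± 0.23), Kcnip3 (0.104 against 3.65) and Kcne4 (0.542 against 3.94), which differed most, and Kcne1l, Kcnd1, Kcnab1, Kcnt1, Kcnn3 and Kcnt2.

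The second question was whether obesity changed these channels. DIO was compared with lean in each tissue by limma over every gene averaging 1 CPM or more there. Of 294 tested pairs of member and tissue, 10 passed an adjusted p of 0.05, and all 10 were in fat. Among the members involved Kcne1l, Kcnd1 and Kcnt2 rose, and Kcnt1 and Kcna2 fell. The depots where these calls fell also had many other changed genes, so the shares below are read against those of all genes.

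Kcne1l rose most. This X-linked gene codes for a small single-pass subunit known to modulate voltage-gated channels of the heart. In subcutaneous fat DIO libraries gave 12.9, 15.3 and 13.5 CPM and lean libraries 3.86, 1.10, 0.723, 2.61 and 1.38 CPM. In mesenteric fat DIO libraries gave 5.36, 5.55, 8.01 and 8.35 CPM and lean libraries 0.408, 0.746 and 0.294 CPM. In both depots every DIO library was above every lean library. The changes were 2.45 ± 0.34 (adjusted p = 0.00510) in subcutaneous and 2.39 ± 0.22 (adjusted p = 8.39e-04) in mesenteric fat on the log2(CPM + 1) scale, which understates changes from low levels. In epididymal fat the groups overlapped at 3.35 ± 1.54 and 3.16 ± 1.15 CPM (0.03 ± 0.29). In retroperitoneal fat the means were 4.79 ± 2.01 and 2.86 ± 1.42 CPM (0.55 ± 0.33, adjusted p = 0.211), and without DIO 3 and lean 2, the libraries set apart, 5.65 ± 0.671 and 2.27 ± 0.616 CPM (1.04 ± 0.19, adjusted p = 0.00208).

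The diet effect on Kcne1l differed between the 4 white depots (interaction F = 13.7, adjusted p = 3.98e-04). By the labels, subcutaneous and mesenteric libraries share a number series, and epididymal and retroperitoneal libraries share another. Depot and series therefore cannot be told apart in this test. With each library left out and under the other settings run, except a filter at 10 CPM that removed the gene, the adjusted p was between 9.27e-05 and 0.00148. In the DIO libraries subcutaneous fat had the highest Kcne1l mean of all tissues (13.9 CPM, against 9.81 CPM in midbrain/brainstem). Without subcutaneous lean 2 and lean 3 the lean mean was 2.62 ± 1.24 CPM and the rise 2.10 ± 0.24. Without mesenteric DIO 2 the rise was 2.47 ± 0.21.

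Kcnd1, an A-type channel that opens briefly near rest, rose in the 3 visceral depots. In epididymal fat DIO libraries gave 4.35, 2.43, 4.36, 3.16 and 3.04 CPM and lean libraries 1.53, 1.34, 1.59, 1.13 and 1.44 CPM, without overlap (0.88 ± 0.17, adjusted p = 0.00112). In mesenteric fat DIO libraries gave 4.15, 6.98, 4.06 and 4.11 CPM and lean libraries 2.41, 2.36 and 1.97 CPM (0.82 ± 0.21, adjusted p = 0.0262). DIO 2 stood above the rest there, and without it the rise was 0.66 ± 0.13 (adjusted p = 0.00542). In retroperitoneal fat DIO libraries gave 3.18, 4.34, 6.72, 3.95 and 2.01 CPM and lean libraries 1.61, 1.68, 1.60, 1.90 and 2.08 CPM, with a small overlap (0.80 ± 0.23, adjusted p = 0.0166). The highest value was that of DIO 3, a library set apart. Without DIO 3 and lean 2 the rise was 0.61 ± 0.22 (adjusted p = 0.0471).

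The mesenteric and retroperitoneal calls of Kcnd1 were lost on rescaling. The median change of all genes was 0.43 in mesenteric, 0.23 in retroperitoneal and 0.15 in epididymal fat. After median-of-ratios rescaling the rise of Kcnd1 was 0.50 (adjusted p = 0.109), 0.61 (0.0505) and 0.77 (0.00203) in these depots, and edgeR gave an adjusted p of 0.106 in mesenteric fat. The mesenteric call was also lost without lean 1, lean 2 or lean 3 (0.0812, 0.0835 and 0.0958). In subcutaneous fat Kcnd1 was 1.94 ± 0.180 CPM in DIO and 2.75 ± 1.38 CPM in lean libraries (-0.27 ± 0.31), and without lean 2 and lean 3 the lean mean was 1.77 ± 0.401 CPM (0.10 ± 0.16). The diet effect differed between the white depots (F = 5.38, adjusted p = 0.0227), but not past the threshold without the libraries set apart (adjusted p = 0.0793), nor without subcutaneous DIO 1, DIO 2, DIO 3, lean 2 or lean 3 alone (0.0551, 0.0752, 0.0560, 0.0557 and 0.0552).

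**Figure D4:**
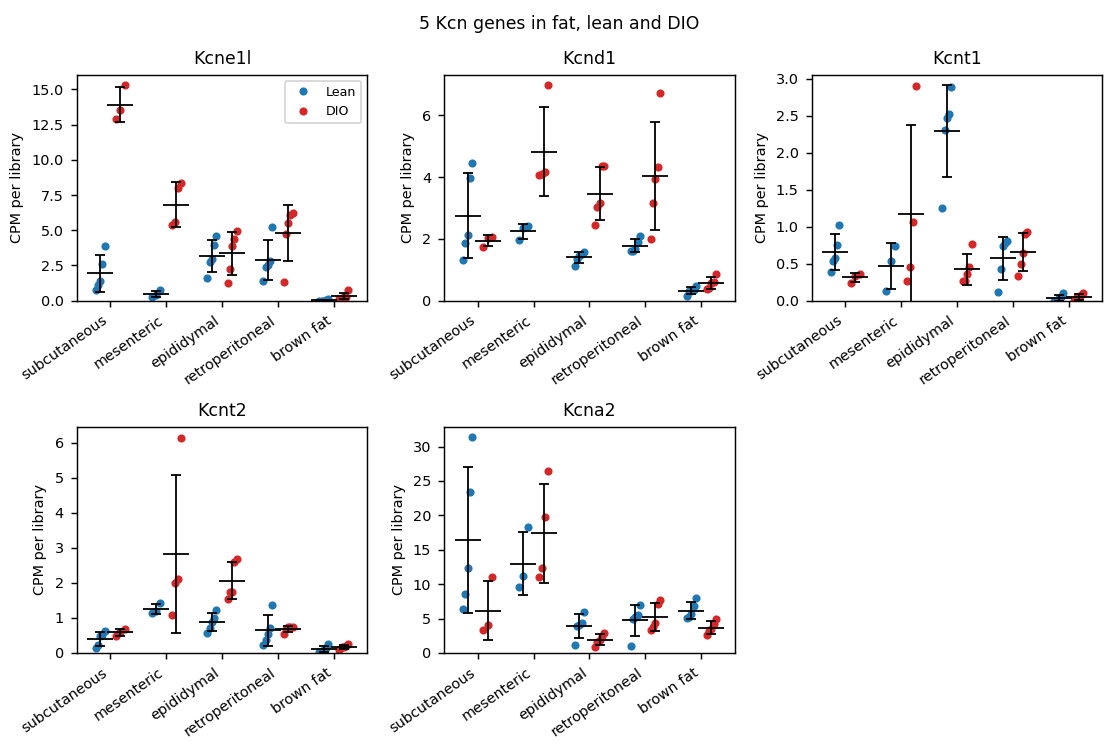
CPM of 5 members in each lean (blue) and DIO (red) library of 4 white depots and brown fat, with mean and SD in black; the vertical scale is linear from 0, which truncates 1 error bar of Kcnt1, and differs between panels. Kcne1l separates the diets in subcutaneous and mesenteric fat, and Kcnt1 in epididymal fat.

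The 2 sodium-activated channels moved in opposite directions in epididymal fat. Kcnt1 fell, from 2.89, 1.25, 2.53, 2.47 and 2.31 CPM in lean to 0.452, 0.266, 0.262, 0.367 and 0.760 CPM in DIO libraries (-1.20 ± 0.20, adjusted p = 2.83e-04). Kcnt2 rose, from 0.999, 0.895, 0.577, 1.24 and 0.719 CPM in lean to 1.74, 1.55, 2.68, 1.74 and 2.58 CPM in DIO libraries (0.69 ± 0.18, adjusted p = 0.00708). Neither pair of groups overlapped. The epididymal DIO libraries include the shallowest and the deepest of all, DIO 5 (6.58 M reads) and DIO 3 (129.7 M). In DIO 5 a single read was 0.152 CPM, so its low values rest on few reads. In brown fat Kcna2 fell, with 4.90, 2.54, 3.53, 3.13 and 4.17 CPM in DIO and 5.22, 6.85, 5.64, 7.98 and 5.06 CPM in lean libraries (-0.63 ± 0.15, adjusted p = 0.00683). Every DIO library was below every lean library, and without DIO 5 and lean 2 the change was -0.63 ± 0.18 (adjusted p = 0.0172). In epididymal fat Kcna2 was also lower by edgeR (-1.225, adjusted p = 0.0213) and DESeq2 (-1.219, 0.00673), but not past the threshold by limma (0.073). In subcutaneous fat DESeq2 alone called Kcnj10, lower in DIO (-5.008, adjusted p = 0.00713, and 0.378 by limma). Without lean 2 and lean 3, the libraries set apart there, Kcnj10 averaged below 1 CPM in that depot and was not tested.

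By depot, 4 of 12 tested members passed in epididymal fat where 52.2% of genes did, 2 of 13 in mesenteric fat (35.2%), 2 of 9 in retroperitoneal fat (41.3%), 1 of 10 in subcutaneous fat (12.4%) and 1 of 5 in brown fat (41.8%). None of these shares exceeded that of all genes. In the interaction test over the white depots 2 of 13 members passed, where 31.9% of genes did.

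Markers of other cells moved in the same depots. Summed levels of the 5 macrophage genes (Ctss, Fcer1g, Mrc1, Atp6v0d2, Cd84) were 3056 ± 1251 CPM in DIO and 169 ± 26.0 CPM in lean epididymal fat (ranges 1495 to 4495 and 127 to 194), 798 ± 137 and 126 ± 21.7 in mesenteric (632 to 967 and 104 to 147), and 1845 ± 953.5 and 145 ± 33.9 in retroperitoneal fat (1155 to 3495 and 95.7 to 183). All 5 rose in each of these depots, and so did 2 or 3 lymphocyte genes. In subcutaneous fat the sums were 286 ± 63.4 and 291 ± 224 CPM (232 to 356 and 93.0 to 642), and 1 of 5 macrophage genes rose. Marker sums here and in the next paragraph include the libraries set apart, in subcutaneous fat lean 2 and lean 3. Sums without those libraries are not given here. The adipocyte genes Fabp4 and Irs1 both fell in epididymal and retroperitoneal fat, Irs1 alone in mesenteric and brown fat, and neither in subcutaneous fat. In brown fat the sums were 47.8 ± 18.6 and 17.1 ± 3.38 CPM (21.4 to 69.3 and 12.6 to 21.3), and all 4 tested macrophage genes rose.

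Markers of vessels moved as well. Of the endothelial genes (Eng, Emcn, Egfl7) 2 of 3 fell in epididymal fat, where their sum was 219 ± 51.2 CPM in DIO and 309 ± 37.6 CPM in lean libraries (159 to 290 and 267 to 349). All 3 rose in brown fat (259 ± 20.8 and 136 ± 21.8 CPM, 238 to 293 and 112 to 162), so the diets did not overlap there. In subcutaneous fat 1 of 3 rose (387 ± 35.5 and 237 ± 53.1 CPM, 364 to 428 and 194 to 319), and 1 of 3 rose in mesenteric and in retroperitoneal fat. Of the smooth muscle genes (Myl9, Des, Lmod1) 2 of 3 fell in epididymal fat (57.1 ± 10.7 and 95.1 ± 22.2 CPM, 40.7 to 69.6 and 62.9 to 124), 1 fell in retroperitoneal fat and 1 rose in brown fat. Both tested lymphocyte genes rose in brown fat (15.2 ± 4.76 and 6.68 ± 1.20 CPM). The mesothelial gene Wt1 rose in epididymal fat. The part of these cell types in the results was not tested.

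Outside fat no member passed in any of 16 tissues by limma or edgeR. By limma 18 of 245 pairs had an unadjusted p under 0.05. The largest count in a tissue was 3 of 26 members in cerebral cortex, where 103 of 3399 genes had such a p. In liver it was 0 of 4 members, where 996 of 2716 genes did. These counts are not read as changes of members. In the brain 26 members were tested in cerebellum and in cerebral cortex and 27 in hypothalamus and in midbrain/brainstem, and 0%, 0%, 0% and 0.0292% of all genes were called. In muscle 9 were tested in soleus, 8 in red gastrocnemius, 9 in EDL and 10 in heart, where 1.24%, 2.63%, 0% and 0.0702% of genes were called. In the gut 12 were tested in stomach, 13 in duodenum, 15 in jejunum, 15 in ileum and 16 in colon, where 0.0303%, 0.311%, 5.42%, 0% and 0% were called. In kidney 11, in adrenal 17 and in liver 4 were tested, where 0.0663%, 0.148% and 23.5% were called. The diet effect did not differ past the threshold between brain regions (0 of 27 members, 0% of genes), between muscles (0 of 11, 0.106%) or along the gut (0 of 16, 13.3%), by limma or edgeR. In these limma tests 0 members had an unadjusted p under 0.05. Of all genes 56 of 3492, 114 of 2833 and 1040 of 3393 did, in the same order.

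DESeq2 added 3 calls outside fat, 2 in adrenal and 1 in soleus. The share of all genes that DESeq2 called there is not given here, so this count has nothing to be read against. In adrenal, Kcna2 was 3.12 ± 1.87 CPM in DIO and 8.61 ± 3.02 CPM in lean libraries, without overlap (-1.34 ± 0.40, adjusted p = 0.268 by limma and 0.0429 by DESeq2). Without DIO 1, DIO 2 and lean 1 the means were 3.84 ± 1.59 and 9.01 ± 3.33 CPM (-1.05 ± 0.31, adjusted p = 0.271 by limma). In soleus Kcnk2 gave 3.96, 3.33, 3.75, 3.91 and 3.38 CPM in DIO and 2.82, 1.98, 2.35, 2.47 and 2.79 CPM in lean libraries, also without overlap (0.43 ± 0.09, adjusted p = 0.0645 by limma, 0.0117 by DESeq2 and 0.0407 by limma with an index of 10 genes as covariate). In red gastrocnemius Kcnk2 was 2.84 ± 0.371 and 2.06 ± 0.146 CPM (adjusted p = 0.0731 by limma).

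Genes that work with potassium channels, such as the sodium pump that builds the potassium gradient, were counted from a list of 26, of which 17 were in the table. In brain 12 of 17 were higher than in other tissues and 5 lower, where 91.3% of all genes were called. Slc12a5, the chloride exporter of neurons driven by potassium, was among the higher ones (659 against 2.70 CPM). With diet 4 of 8 rose and 3 fell in epididymal fat (52.2% of all genes called), 4 of 9 rose and 1 fell in retroperitoneal fat (41.3%), and 3 of 9 rose and 0 fell in mesenteric fat (35.2%). In subcutaneous fat 2 of 9 rose and 0 fell (12.4%), and in brown fat 3 of 6 rose and 1 fell (41.8%). Atp1a4, a pump alpha subunit best known from sperm, rose in all 4 white depots, most in subcutaneous fat (19.6 against 1.16 CPM, 3.39 ± 0.42, adjusted p = 0.00394). Dlg3, a scaffold protein of the synapse, rose in epididymal (50.8 against 10.6 CPM), retroperitoneal and mesenteric fat and fell in brown fat (8.66 against 12.4 CPM). Outside fat 2 of 9 fell in jejunum (5.42% of all genes called), 1 of 6 in liver (23.5%) and 1 of 8 in soleus (1.24%).

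Some members share their locus with a neighbour. Kcnj13 overlaps Gigyf2, Kcnh1 overlaps Hhat, Kcnh7 overlaps Gca and Kcnd3 overlaps Kcnd3os, each on the opposite strand. The library kit marks strand, but whether the counting used it is not given in the sources used here, so values of these 4 members are uncertain. The same holds for Kcnb2, Kcnq5, Kcne4, Kcnt2, Kcnj3, Kcnj9, Kcnk2, Kcnab1 and Kcna3, which overlap noncoding genes on the opposite strand.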

How the data were processed

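Libraries were prepared with a stranded TruSeq mRNA kit and sequenced as paired 100-base reads, per the labels' protocols. FastQC, STAR, HTSeq and DESeq2 are named per the submitters' processing notes; for versions, settings and genome build, the sources used here give nothing. The authors deposited 1 table of CPM for 13154 genes and 205 columns. Left out were 1 column that fitted no sample and 1 gene with missing values. Whole reads were recovered from the CPM values (100% whole within 0.001 read) and served the edgeR and DESeq2 tests. On these, edgeR added 2 calls of members to the 10 made by limma, DESeq2 added 7, and each lost 1. The share of all genes called by edgeR and DESeq2 is not given here.

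Symbols and exon lengths came from GENCODE M21 (13139 identifiers matched). The table ran over chromosomes 1, 2, 3 and X and the start of chromosome 4. DIO was compared with lean by limma 3.58.1 (trend option, log2 of CPM plus 1), keeping every gene that averaged 1 CPM or more in the tissue. Lean contrasts used genes with 1 CPM in at least 1 tissue. p was adjusted by Benjamini-Hochberg over all genes tested, threshold 0.05. Interactions were limma F tests. A fold on log2(CPM + 1) understates changes of low genes. Members reaching 5 CPM in a lean tissue were given with values, and called pairs of member and tissue with every library; results of 2 members are not reported here. Members and lists were chosen with earlier results of these data known.

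Alternatives were another pseudocount, other filters, median-of-ratios rescaling, edgeR 4.0.16, DESeq2 1.42.0, an index of 10 genes as covariate, a fit on the tissues of a contrast alone, and leaving out the libraries set apart or each library in turn. The fits were tested on simulated data. Of 398 pairs of replicates none were duplicates (lowest chi-square per degree of freedom 3.48). Software was R 4.3.3 and Python 3.11.15. Sequences came from the GENCODE M21 transcripts.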

Additional observations from a re-analysis of the deposited data

Results flagged for a closer look

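Among 37 groups of 4 or more libraries checked for 1 library far from the rest, 1 was singled out; chance singles out about 1 in 20 groups. Kcnd1 in mesenteric fat was 6.98 CPM in the DIO 2 library, whose 3 fellows lay between 4.06 and 4.15 CPM. That library also had 269 CPM of the B cell gene Cr2, and the part of such cells in the value was not tested.

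The effect of diet differed between the white fat depots for Kcne1l (adjusted p of the interaction 3.98e-04 by limma) and for Kcnd1 (0.0227). Kcne1l rose by 2.45 and 2.39 on the log2 scale in subcutaneous and mesenteric fat and changed by 0.03 in epididymal and 0.55 in retroperitoneal fat. Without the retroperitoneal libraries set apart the latter was 1.04 (adjusted p = 0.00208). Subcutaneous and mesenteric libraries also differ from epididymal and retroperitoneal ones in label number series, which cannot be told apart from depot. Kcnd1 changed by -0.27 in subcutaneous fat and by 0.80 to 0.88 in the other 3 depots. Its interaction was lost without the libraries set apart (0.0793) and without subcutaneous DIO 1, DIO 2, DIO 3, lean 2 or lean 3 alone (0.0551 to 0.0752). Without subcutaneous lean 2 and lean 3 the change there was 0.10, and on rescaling the mesenteric change was 0.50. Without retroperitoneal DIO 3 and lean 2 the retroperitoneal change of Kcnd1 was 0.61.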

How the results depend on the processing

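Over the alternatives run no called result of a member reversed: of 160 values for the 10 diet calls 141 stayed past the threshold and 19 did not, and of 1692 values for the 142 lean calls 1599 did and 93 did not. Of the diet calls described, mesenteric and retroperitoneal Kcnd1 missed the threshold under some settings, and those of Kcne1l, epididymal Kcnd1, Kcnt1, Kcnt2 and Kcna2 under none. White fat had 9 calls, 8 to 10 with each library left out and 2 at a filter of 10 CPM, where fewer members were tested. Brown fat had 1 call, 1 to 2 with each library left out, 0 at 10 CPM, and 2 with no filter or by DESeq2. DESeq2 called 2 members in adrenal and 1 in muscle and heart, where the covariate of 10 genes also gave 1. The share of all genes called under these settings is not given here. The white fat interaction had 2 calls, 0 at 10 CPM, and 1 to 3 with each library left out. Lean stomach against intestine had 13 calls (8 to 15 without 1 replicate number) and colon against small intestine 9 (7 to 14). Apart from the filters, the cause of these shifts was not tested. No paired analysis was possible because the labels carry no replicate numbers and do not tie libraries to mice.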

Other observations

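Summed over the 30 members, lean liver had the lowest level per kb of exon of the 21 tissues, 1.58 CPM per kb. There 4 of 30 members reached 1 CPM, led by Kcna2 with 3.62, 5.89, 3.51, 3.09 and 3.73 CPM in the lean libraries. The lean adrenal libraries with Hsd3b1 carried Kcnc4 at 6.63 to 35.7 CPM and Kcnip3 at 10.2 to 18.9 CPM, while lean library 1 had 0 and 1.49 CPM.

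The 30-base stretches around the filter codons of Kcna10 and Kcng1 were alike in 28 of 30 bases. Kcna10 was at most 0.360 CPM in any lean library, and Kcng1 averaged 42.3 CPM in lean cerebral cortex.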
